A study of Arabidopsis thaliana with 9 samples.

Results

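The *rlp44-3* mutant of *Arabidopsis thaliana* was compared with wild-type Col-0 by mRNA sequencing of whole seedlings, 3 libraries per genotype, which are 6 of the 9 libraries of the study. *rlp44-3* is a single T-DNA insertion line in *RLP44* (AT3G49750) in the Col-0 background, and the other 3 libraries, of the *exg1-1* mutant (spelled evg1-1 in the sample labels), carry an insertion in *EXG1*, a cell wall gene induced by wounding. All seedlings were 7 days old, untreated, grown vertically on agar medium at 20 °C in 8 h light and 16 h dark after stratification in the cold, and frozen whole at collection. The comparison covered the 19223 genes, of 25717 with values, that reached a mean of 10 or more reads per library in *rlp44-3* or Col-0. It asks which transcripts of an unwounded seedling are at another level when RLP44 is missing.

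RLP44 is a receptor-like protein with leucine-rich repeats outside the cell and no kinase domain of its own. It is known for sensing the state of pectin in the cell wall and for associating with the brassinosteroid receptor BRI1 and its co-receptor BAK1, and with the phytosulfokine receptor PSKR1, through which it helps to keep procambial cells from becoming xylem. Receptor-like proteins signal through such partner kinases, so a mutant can be read in the target genes of several pathways at once.

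The values in the table were fitted ones, in units of reads, rather than counts. No value was whole within 1e-06, and the 3 columns of a genotype were proportional to each other to within 1.9e-14 of a value. Each gene therefore has 1 value per genotype, given as reads per library (the mean of the 3 columns, before scaling) or as CPM after scaling to Col-0 by the trimmed mean of M values (TMM). Where 3 values are given for a genotype, they are this 1 value at the size of each column. Their closeness is no measure of agreement between replicates. The *rlp44-3* columns were deeper, by 0.31 on the log2 scale, and fold changes are corrected for this, so equal reads in both genotypes mean a lower level in *rlp44-3*. No replicate spread was left in the table, no replicate test was possible, and no p-value is given. The columns summed to between 11015026 and 11535985 in *rlp44-3* and between 8364383 and 9606982 in Col-0. The log2 fold change is *rlp44-3* over Col-0 throughout, and the 95% interval beside it is an exact binomial one on the summed reads, which covers counting error only and not the variation between plants. The libraries were made with a directional kit, but the sources used here do not say if reads were counted by strand. Values are thus uncertain for the 28.1% of kept genes with a neighbour overlapping them on the opposite strand. Among the genes named here these are *ADH1*, AT2G08665, AT4G38775, AT5G21940, *BCAT2*, *BCAT4*, *BETA-TIP*, *BT5*, *CBF3*, *CESA4*, *CESA7*, *CESA8*, *COR15B*, *DIN10*, *DREB2A*, *ERF105*, *EXPA18*, *KMD4*, *LAC17*, *LEA7*, *MYB73*, *OLEO2*, *ORA47*, *P5CS1*, *RAB18*, *RLP22*, *TCH3*, *THA1*, *VND2*, *VND6* and *XCP1*. The labels gave no harvest, extraction or sequencing batch. Values of *exg1-1* are set beside some results, and both mutants were measured against the same Col-0 libraries.

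*RLP44* itself had 0.356, 0.351 and 0.368 reads in the fitted *rlp44-3* columns, against 35.1, 31.1 and 35.8 in the fitted Col-0 columns. The *rlp44-3* value stands for about 1 read over the 3 libraries, so the labels and the transcript matched. The log2 fold change was −6.88 (counting interval −12.30 to −4.47), a 118-fold lower value, and *exg1-1* had 3.01 CPM against 3.72 in Col-0. Of the 5 annotated genes on each side of it on chromosome 3, 4 passed the filter. *PSK4*, the fifth gene on one side and a precursor of the phytosulfokine peptide, had 77.2 reads per library in *rlp44-3*, against 67.2 in Col-0 (log2 fold change −0.11, counting interval −0.39 to 0.17). AT3G49725, which encodes a GTP-binding protein, was the one neighbour whose interval did not reach 0, with 90.8 reads per library in *rlp44-3*, against 57.5 in Col-0 (log2 fold change 0.35, counting interval 0.07 to 0.63).

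Most transcripts were at nearly the same level in both genotypes. The median log2 fold change over the kept genes was −0.00, 95% of genes lay between −0.61 and 0.52, and 9587 genes were higher and 9636 lower in *rlp44-3*. At least 2-fold higher were 113 genes (0.588% of the kept genes), and at least 2-fold lower were 175 (0.91%). At 1.5-fold the counts were 397 higher (2.07%) and 530 lower (2.76%). These counts are of fold thresholds, not of tests. The shares are the background against which the gene lists below are read.

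Higher and lower genes differed in how strongly they were expressed. Of the 113 genes at least 2-fold higher, 44 had 100 or more reads per library in *rlp44-3* and 49 had fewer than 30. Of the 175 genes at least 2-fold lower, 23 had 100 or more reads in Col-0 and 101 had fewer than 30. The counting interval lay wholly beyond 1.5-fold for 78 of the higher and 133 of the lower genes. Among the 1549 genes with a mean over 1000 reads, 9 lay 2-fold or more above Col-0 and 1 lay 2-fold or more below it. Between 10 and 30 reads, in contrast, 36 of 2400 genes (1.5%) were 2-fold or more above Col-0 and 78 (3.25%) were 2-fold or more below it. The interquartile range of log2 fold changes was 0.532 between 10 and 30 reads and 0.124 over 1000 reads, so log2 fold changes were more spread at low levels. At the filter itself, AT1G67035 was the last gene kept, at 10.01 reads per library in *rlp44-3*, and AT5G07571 the first left out, at 9.9997. Both directions were spread over all 5 nuclear chromosomes, with 0.398% to 0.784% of a chromosome's kept genes at least 2-fold higher, and 0.614% to 1.13% lower by as much.

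**Figure D1:**
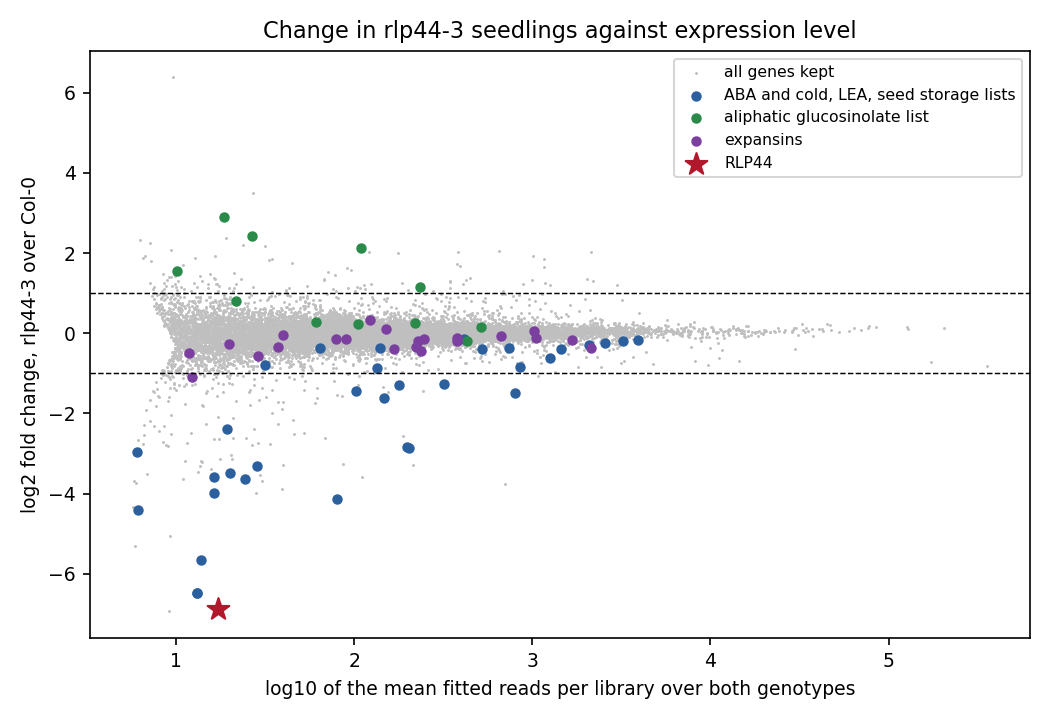
Log2 fold change of *rlp44-3* over Col-0 (vertical axis) against the log10 of the mean fitted reads per library over both genotypes (horizontal axis) for the 19223 kept genes, 1 point per gene, with abscisic acid, LEA and seed, aliphatic glucosinolate and expansin lists in colour and *RLP44* as a star. The cloud narrows with level, *RLP44* lies at −6.88, and all marked abscisic acid, LEA and seed genes lie below 0.

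Genes of late seed maturation and of the response to abscisic acid formed a group of lower transcripts. Abscisic acid builds up in ripening seeds and in drought, and its receptors block clade A protein phosphatases (PP2Cs), which frees SnRK2 kinases to activate bZIP transcription factors such as ABI5. These factors bind ABRE elements and switch on genes for late embryogenesis abundant (LEA) proteins, which protect cells from drying. Of 16 kept genes induced by abscisic acid or cold, all 16 were lower in *rlp44-3*, with a median log2 fold change of −0.38, against −0.00 over all kept genes. Past 1.5-fold lower were 7 of them, and 4 reached 2-fold. The summed level of the list was 1569 CPM in *rlp44-3*, 1579 in *exg1-1* and 2062 in Col-0. Of a LEA list of 12 genes with values, 11 were kept and all 11 were lower, 10 of them past 1.5-fold and 9 past 2-fold, with a median of −2.39. The list's *ECP63*, *EM1*, *M17* and *XERO1* passed the filter through Col-0 alone, which fixed their direction. The 7 members with 10 or more reads in both genotypes were all lower, 6 past 1.5-fold and 5 past 2-fold, with a median of −1.45. The summed level of all 11 kept members was 114 CPM in *rlp44-3*, 128 in *exg1-1* and 294 in Col-0. These lists had been chosen with results of the same libraries known, so their direction is a description.

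*RD29B*, an ABRE-driven gene that responds to drought and abscisic acid, had 58.0, 57.3 and 60.0 reads in the fitted *rlp44-3* columns, against 345, 307 and 352 in the fitted Col-0 columns. Its log2 fold change was −2.83 (counting interval −3.07 to −2.60), a 7.11-fold lower value. *RAB18*, which encodes a dehydrin, had 488 reads per library in *rlp44-3*, against 1106 in Col-0 (log2 fold change −1.49, counting interval −1.58 to −1.40). *RD29A*, which answers to cold as well as to abscisic acid, had 698 reads per library in *rlp44-3*, against 1008 in Col-0 (log2 fold change −0.84, counting interval −0.92 to −0.76). Cold-regulated genes covered a range. *KIN2* had 1121 reads per library in *rlp44-3*, against 1376 in Col-0 (log2 fold change −0.61), and *COR15B*, which protects chloroplast membranes from freezing, had 109.7 reads per library in *rlp44-3*, against 160.1 in Col-0 (log2 fold change −0.86). Their copies *KIN1* and *COR15A* had log2 fold changes of −1.62 and −1.26. The copies of each pair are near identical, so reads could be split between them. *P5CS1*, the first enzyme of proline synthesis, chosen after its value was seen, had 803 reads per library in *rlp44-3*, against 1352 in Col-0 (log2 fold change −1.06, counting interval −1.14 to −0.99).

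The LEA genes showed larger fold differences. *LEA4-5* had 10.6, 10.4 and 10.9 reads in the fitted *rlp44-3* columns, against 154, 137 and 157 in the fitted Col-0 columns. Its log2 fold change was −4.12 (counting interval −4.68 to −3.60), or 17.4-fold lower. *LEA7* had 59.5 reads per library in *rlp44-3*, against 348 in Col-0 (log2 fold change −2.86, counting interval −3.09 to −2.62), and overlaps a gene on the other strand. Late embryogenesis genes that are known by locus number followed. AT3G02480 had 48.3 reads per library in *rlp44-3*, against 379 in Col-0 (log2 fold change −3.29, counting interval −3.54 to −3.03), AT3G15670 had 20.5 reads per library in *rlp44-3*, against 199 in Col-0 (log2 fold change −3.59, counting interval −4.01 to −3.22), and AT3G17520 had 19.6 reads per library in *rlp44-3*, against 152 in Col-0 (log2 fold change −3.27). *ECP63* and *M17*, LEA genes of the maturing embryo, had 4.02 and 2.36 reads per library in *rlp44-3*, against 36.2 and 30.2 in Col-0. *EM1* and *EM6*, LEA genes of the dry seed, had log2 fold changes of −3.58 and −0.78. *LEA4-1* and *LEA4-2*, of the same family as *LEA4-5*, had 63.7 and 119.7 reads per library in *rlp44-3*, against 140.2 and 236 in Col-0 (log2 fold changes −1.45 and −1.29). The smallest difference of the list was in *LEA14*, with 509 reads per library in *rlp44-3*, against 537 in Col-0 (log2 fold change −0.39, counting interval −0.49 to −0.29). Outside the list, 3 further genes annotated as LEA proteins, AT2G42560, AT2G21490 (named *LEA*) and AT5G66780, were at −3.27, −3.52 and −3.67 on the log2 scale. AT1G04560, which encodes a membrane protein of the AWPM-19 family, had 6.11 reads per library in *rlp44-3*, against 72.0 in Col-0 (log2 fold change −3.87), and *BETA-TIP*, a water channel of the vacuole membrane, had 4.06 in *rlp44-3*, against 51.8 in Col-0 (log2 fold change −3.99). Both passed the filter through Col-0 alone, which fixed their direction.

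Several regulators of the pathway were lower too, at lower read numbers. Of 9 clade A PP2Cs, 7 were kept, and all 7 of these brakes of abscisic acid signalling, which the hormone also induces, were lower (median −0.37), *HAI2* having passed the filter through Col-0 alone. *HAI1* had 18.7 reads per library in *rlp44-3*, against 45.5 in Col-0 (log2 fold change −1.60, counting interval −2.08 to −1.14), and *HAI2* had 2.68 in *rlp44-3*, against 23.7 in Col-0. Of 8 kept abscisic acid transcription factors, 3 were higher and 5 lower, and 3 were past 1.5-fold, all lower. *ABI5*, the bZIP factor that holds back germination, had 22.0 reads per library in *rlp44-3*, against 47.3 in Col-0 (log2 fold change −1.42, counting interval −1.86 to −0.99). *ABI3*, the B3 factor of seed maturation, had 41.7 reads per library in *rlp44-3*, against 54.7 in Col-0 (log2 fold change −0.70, counting interval −1.05 to −0.36). *ABI4*, an AP2 factor, had about 2 reads over the 3 *rlp44-3* libraries, against a mean of 10.8 per Col-0 library. It passed the filter through Col-0 alone, which fixed its direction.

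Transcripts of seed reserves and of their use were lower as well. Of 13 measured genes of storage proteins and oil bodies, 7 passed the filter, each through Col-0 alone, so a lower value in *rlp44-3* was built into their choice. They had a median log2 fold change of −4.41 and a range from −6.48 to −2.95, and they summed to 1.28 CPM in *rlp44-3*, 3.20 in *exg1-1* and 21.4 in Col-0. *CRA1*, a cruciferin storage globulin, had 4.39 reads per library in *rlp44-3*, against 44.1 in Col-0 (log2 fold change −3.64, counting interval −4.60 to −2.83). *OLEO2*, which coats oil bodies, had 6.38 reads per library in *rlp44-3*, against 50.7 in Col-0 (log2 fold change −3.30, counting interval −4.08 to −2.62). *CRU3*, another cruciferin, had about 1 read over the 3 *rlp44-3* libraries, against a mean of 25.7 in Col-0 (log2 fold change −6.48, counting interval −11.90 to −4.06). *ICL*, the isocitrate lyase of the glyoxylate cycle that turns seed oil into sugar, was among the more strongly expressed of these genes. It had 116, 115 and 120.4 reads in the fitted *rlp44-3* columns, against 1319, 1171 and 1345 in the fitted Col-0 columns, a 13.5-fold lower value (log2 fold change −3.76, counting interval −3.92 to −3.60). *MLS*, the malate synthase of the same cycle, chosen after its value was seen, had 64.4 reads per library in *rlp44-3*, against 309 in Col-0 (log2 fold change −2.57, counting interval −2.81 to −2.35).

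Seed markers were lower in *rlp44-3*, but for most of those kept the filter fixed this direction. Of a list of 10 seed markers, 7 passed the filter, 6 of them through Col-0 alone, so that their lower value was fixed by the filter. The one that passed in both genotypes was *EM6*, with 26.4 reads per library in *rlp44-3*, against 36.4 in Col-0 (log2 fold change −0.78, counting interval −1.21 to −0.35). The summed level of the 7 was 3.70 CPM in *rlp44-3*, 5.53 in *exg1-1* and 24.6 in Col-0. *SESA1*, *SESA2* and *SESA4*, which encode seed storage albumins, did not pass the filter. Leaf markers summed to 57252 CPM in *rlp44-3*, 58400.1 in *exg1-1* and 53286 in Col-0, and root markers to 3112 CPM in *rlp44-3*, 2739 in *exg1-1* and 2983 in Col-0. *BGLU23* alone held most of the root sum, with 2905 CPM in *rlp44-3*, 2546 in *exg1-1* and 2768 in Col-0. Of the 17 kept root markers, 7 were higher and 10 lower in *rlp44-3* (median −0.02). None of 7 measured flower and pollen markers passed. In whole seedlings, fewer cells of a type and less RNA per cell cannot be told apart, and the part of the lower seed markers in the lower abscisic acid genes was not tested.

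**Figure D2:**
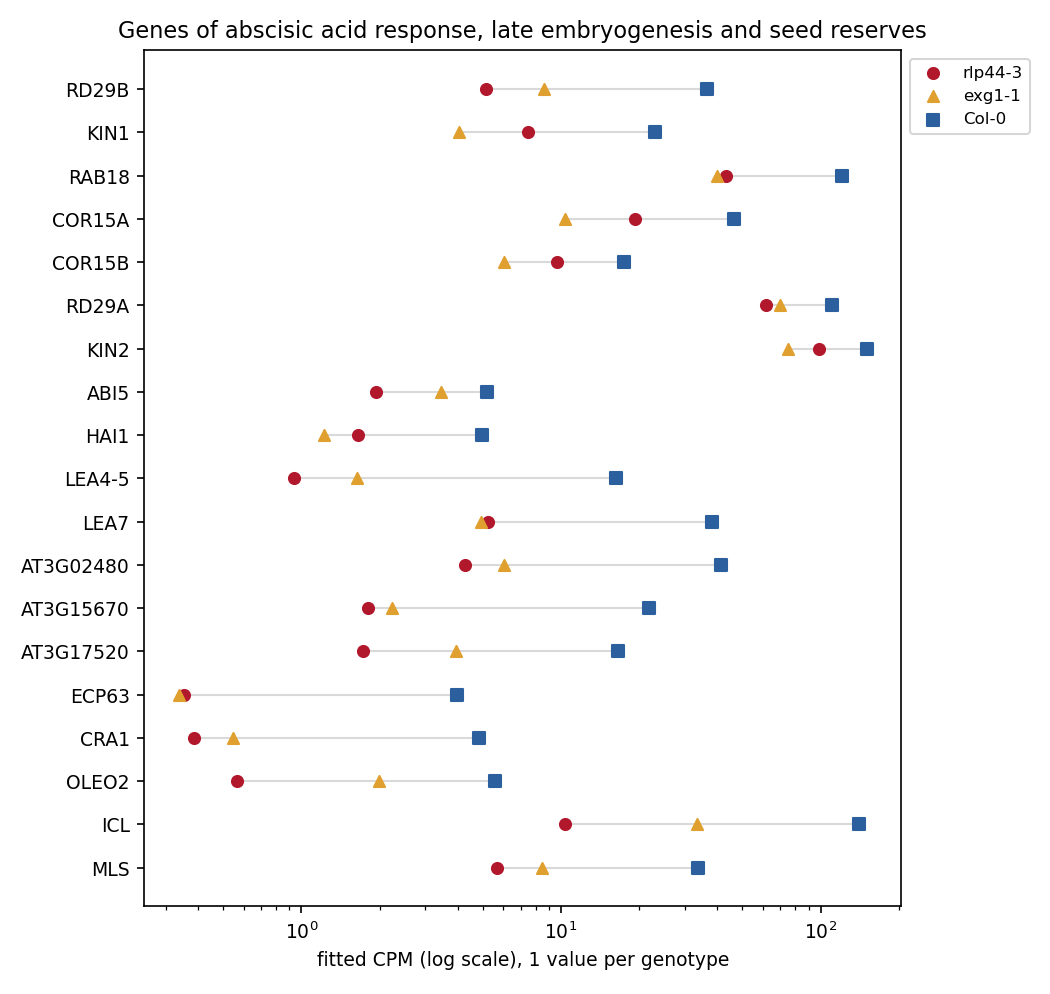
Fitted CPM (horizontal log axis) of genes of abscisic acid response, late embryogenesis and seed reserves in *rlp44-3* (circles), *exg1-1* (triangles) and Col-0 (squares), 1 value per genotype without error. Every *rlp44-3* point lies left of its Col-0 point, from 61.6 CPM in *rlp44-3*, 69.5 in *exg1-1* and 110.4 in Col-0 for *RD29A* to 0.940 CPM in *rlp44-3*, 1.63 in *exg1-1* and 16.4 in Col-0 for *LEA4-5*.

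Seed and abscisic acid genes were a large share of the lower genes. Among genes with 30 or more reads per library in the higher genotype, 64 were 2-fold or more above Col-0 and 74 were below it by as much. Of the 74, 29 were in the abscisic acid, LEA or seed lists or were annotated as LEA, dehydrin, oleosin or cupin proteins, and of the 64 none was. Of all 89 kept genes with such an annotation, 28 were lower by 2-fold or more and 1 was higher by as much. Some of the lower genes, such as *ECP63*, *CRA1* and *OLEO2*, passed the filter through Col-0 alone, which fixed their direction. The lists had been chosen with results of the same libraries known, so these shares are a description.

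The promoters of 4 of these genes are shown because ABI5 and related bZIP factors bind the ABRE core, ACGTG, and because 3 of them hold it several times. The sequences are from RefSeq (assembly TAIR10.1), the 250 bases before the gene start, 5′ to 3′ on the strand of the gene. Capitals mark ACGTG or its reverse complement CACGT for *LEA4-5*, *RD29B* and AT3G02480, and CCGAC, the core of the drought and cold element DRE, for *RD29A*.
LEA4-5 (chr5:2090431-2090680, minus strand): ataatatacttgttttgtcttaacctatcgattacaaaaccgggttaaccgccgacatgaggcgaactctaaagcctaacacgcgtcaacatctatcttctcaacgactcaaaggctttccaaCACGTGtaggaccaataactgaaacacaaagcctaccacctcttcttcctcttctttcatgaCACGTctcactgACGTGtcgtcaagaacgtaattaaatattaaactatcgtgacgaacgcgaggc
RD29B (chr5:21236771-21237020, plus strand): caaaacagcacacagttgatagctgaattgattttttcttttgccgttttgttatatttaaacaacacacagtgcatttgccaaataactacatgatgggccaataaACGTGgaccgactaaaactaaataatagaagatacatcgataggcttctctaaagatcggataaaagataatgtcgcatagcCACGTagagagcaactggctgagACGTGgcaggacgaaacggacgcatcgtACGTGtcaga
AT3G02480 (chr3:511970-512219, plus strand): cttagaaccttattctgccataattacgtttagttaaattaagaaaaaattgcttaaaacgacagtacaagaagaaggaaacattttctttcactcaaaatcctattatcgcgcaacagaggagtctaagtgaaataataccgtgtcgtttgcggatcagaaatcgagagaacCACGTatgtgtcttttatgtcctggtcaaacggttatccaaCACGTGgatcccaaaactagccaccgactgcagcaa
RD29A (chr5:21240467-21240716, plus strand): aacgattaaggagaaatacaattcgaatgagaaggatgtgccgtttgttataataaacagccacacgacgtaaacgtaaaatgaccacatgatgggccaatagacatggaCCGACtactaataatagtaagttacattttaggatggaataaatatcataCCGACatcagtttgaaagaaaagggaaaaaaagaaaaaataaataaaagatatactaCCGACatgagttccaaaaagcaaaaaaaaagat
The *LEA4-5* and *RD29B* stretches hold 4 ABRE matches each and that of AT3G02480 holds 3, where a palindromic CACGTG (a G-box) counts as 2 overlapping matches. The *RD29A* stretch holds 3 DRE matches. The DRE core CCGAC also occurs in the *LEA4-5*, *RD29B* and AT3G02480 stretches, where it is left in lower case.

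Motifs were counted on both strands in the window from 250 bases before to 50 after the start, for the 19089 kept genes with a RefSeq promoter. The ABRE core was in 68.9% of the 74 promoters of lower genes (51), in 43.8% of the 64 promoters of higher genes (28) and in 27.9% of all kept promoters. At least 2 matches, overlapping ones included, were in 48.6% of lower, 18.8% of higher and 12.2% of all promoters. The DRE core was in 25.7% of lower, 20.3% of higher and 16.3% of all promoters. The W-box core TTGAC, the motif of WRKY factors, was in 40.5% of lower, 48.4% of higher and 50.7% of all promoters. The evening element AAATATCT of the circadian clock was in 4.05%, 9.38% and 5.96% in the same order, and CGCGTT, a core of the rapid stress response element, in 2.7%, 1.56% and 3.65%. A match is a description of the sequence and not a bound site.

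**Figure D3:**
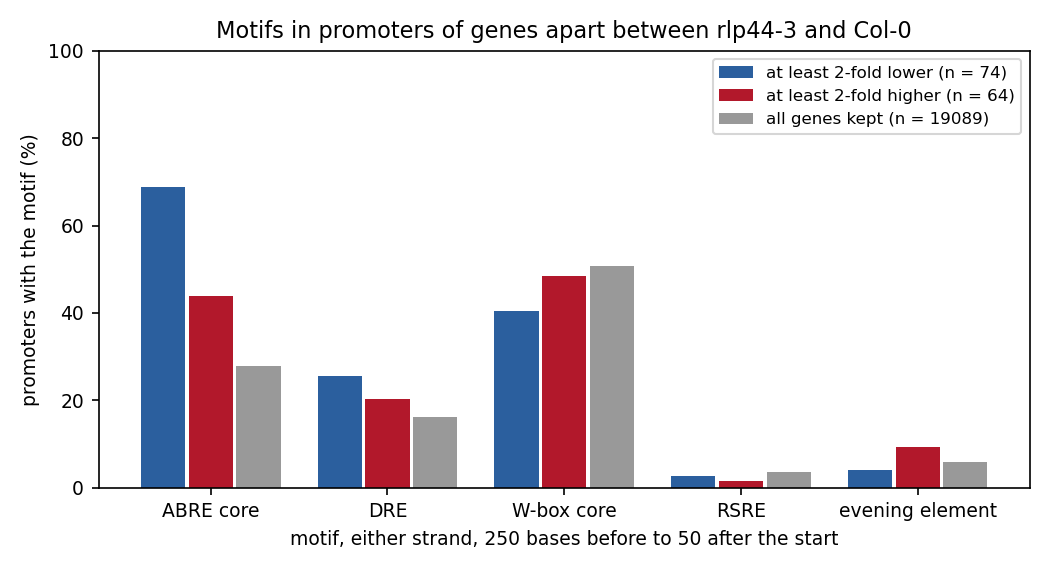
Share of promoters with a motif (vertical axis, %) on either strand within 250 bases before to 50 after the start, for the 74 genes at least 2-fold lower in *rlp44-3*, the 64 at least 2-fold higher, both with 30 or more reads, and all 19089 kept genes with a promoter. The ABRE core stands at 68.9% of lower, 43.8% of higher and 27.9% of all promoters, while W-box shares are 40.5%, 48.4% and 50.7%.

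Among the higher transcripts, those of aliphatic glucosinolate synthesis had a large fold difference. Aliphatic glucosinolates are defence compounds made from methionine, whose side chain is first lengthened by BCAT4 and the MAM synthases in the chloroplast, after which CYP79F and CYP83A1 enzymes build the core. Of 11 kept genes of this list, 10 were higher and 1 lower, with a median log2 fold change of 0.81. Past 1.5-fold higher were 6 of them, and 5 reached 2-fold. Of these 6, 3 passed the filter through *rlp44-3* alone, and of the 8 members with 10 or more reads in both genotypes 3 were past 1.5-fold higher. The summed level of all 11 kept members was 191 CPM in *rlp44-3*, 109 in *exg1-1* and 147 in Col-0. The median depended on the filter, because several members had few reads in Col-0: it was 0.26 where both genotypes had to reach 10 reads and 0.24 where one had to reach 50.

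*MAM1*, a methylthioalkylmalate synthase, had 183, 181 and 189 reads in the fitted *rlp44-3* columns, against 34.8, 30.9 and 35.5 in the fitted Col-0 columns, a 4.40-fold higher value (log2 fold change 2.14, counting interval 1.83 to 2.46). *CYP83A1* had 342 reads per library in *rlp44-3*, against 123 in Col-0 (log2 fold change 1.16, counting interval 0.99 to 1.34). *CYP79F1* and *CYP79F2*, which turn chain-lengthened methionine into aldoximes, are adjacent near-identical copies and so uncertain one by one. They had 33.2 and 46.5 reads per library in *rlp44-3*, against 3.60 and 6.95 in Col-0. *BCAT4*, the entry enzyme, had few reads and overlaps a gene on the other strand (15.9 reads per library in *rlp44-3*, against 4.39 in Col-0). Chosen after their values were seen, *IPMI2*, an isomerase of the chain elongation, had 168 reads per library in *rlp44-3*, against 62.6 in Col-0 (log2 fold change 1.11, counting interval 0.87 to 1.36), and *FMO GS-OX3*, which oxidises the side chain, had 39.5 in *rlp44-3*, against 14.4 in Col-0. The MYB regulators of the pathway did not share this pattern: *MYB28* had 449 reads per library in *rlp44-3*, against 412 in Col-0 (log2 fold change −0.19, counting interval −0.30 to −0.07), and *MYB29* had a log2 fold change of 0.28 (counting interval −0.03 to 0.59). Later enzymes of the list were near Col-0, with log2 fold changes of 0.16 for *SUR1* and 0.22 and 0.25 for the sulphotransferases *SOT17* and *SOT18*. *MAM1* was at 16.3 CPM in *rlp44-3*, 5.37 in *exg1-1* and 3.69 in Col-0, and *CYP83A1* was at 30.2 CPM in *rlp44-3*, 10.7 in *exg1-1* and 13.5 in Col-0. The 11 kept genes of indole glucosinolates, made from tryptophan, had a median of 0.00 and none was past 1.5-fold. *ATSDI1*, which is induced by sulphur shortage and represses glucosinolate genes, was higher, with 53.8 reads per library in *rlp44-3*, against 12.2 in Col-0 (log2 fold change 1.83).

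Several of the most strongly expressed higher genes are ones that respond to darkness or low sugar. Of 10 kept members of such a list, 6 were higher and 4 lower (median 0.07), so the list did not move one way. Past 1.5-fold were 4 higher and 2 lower members. *KMD1* and *KMD4* encode F-box proteins that mark type-B response regulators of cytokinin signalling and phenylpropanoid enzymes for breakdown. *KMD1* had 1847, 1823 and 1909 reads in the fitted *rlp44-3* columns, against 489, 435 and 499 in the fitted Col-0 columns (log2 fold change 1.66, counting interval 1.57 to 1.74). *KMD4* had 3059.7 reads per library in *rlp44-3*, against 968 in Col-0 (log2 fold change 1.35, counting interval 1.29 to 1.41). *DIN10*, a raffinose synthase family gene induced in the dark, had 2725 reads per library in *rlp44-3*, against 1205 in Col-0 (log2 fold change 0.87, counting interval 0.81 to 0.92). In contrast *DIN2*, a dark-inducible glycosidase, had 95.8 reads per library in *rlp44-3*, against 213 in Col-0 (log2 fold change −1.46, counting interval −1.67 to −1.26), and *BCAT2*, an aminotransferase of branched-chain amino acids, had 33.2 in *rlp44-3*, against 71.8 in Col-0 (log2 fold change −1.43, counting interval −1.77 to −1.07). *DIN2* was at 8.46 CPM in *rlp44-3*, 34.9 in *exg1-1* and 23.3 in Col-0, and *BCAT2* at 2.93 CPM in *rlp44-3*, 28.4 in *exg1-1* and 7.86 in Col-0, so that the *rlp44-3* value was below Col-0 and the *exg1-1* value above it. *DIN10* was at 240.5 CPM in *rlp44-3*, 480.1 in *exg1-1* and 132 in Col-0. *THA1*, a threonine aldolase chosen after its value was seen, had the same order as *BCAT2*, with 1.46 CPM in *rlp44-3*, 34.6 in *exg1-1* and 5.78 in Col-0.

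The 12 largest log2 fold changes among nuclear genes with 50 or more reads per library in *rlp44-3* included *MAM1*, *ATSDI1* and *WRKY70*, described with their pathways, and genes of varied roles. *BT5*, a BTB and TAZ domain protein, had 1082 reads per library in *rlp44-3*, against 212 in Col-0 (log2 fold change 2.04, counting interval 1.92 to 2.17), and its relative *BT2*, a gene repressed by sugar and chosen after its value was seen, had 684 reads per library in *rlp44-3*, against 213 in Col-0 (log2 fold change 1.37). AT2G20670, a DUF506 gene, had 3566 reads per library in *rlp44-3*, against 708 in Col-0, a 4.06-fold higher value (log2 fold change 2.02, counting interval 1.95 to 2.09). Another DUF506 gene, AT4G32480, had 634 reads per library in *rlp44-3*, against 126 in Col-0 (log2 fold change 2.02). AT5G19120, annotated as an aspartyl protease, had 1896 reads per library in *rlp44-3*, against 425 in Col-0 (log2 fold change 1.84). *OXS3*, named for tolerance of oxidative stress, had 293 reads per library in *rlp44-3*, against 59.4 in Col-0 (log2 fold change 1.99, counting interval 1.76 to 2.23). AT5G21940 had 1665 in *rlp44-3*, against 352 in Col-0. *SAE1B*, a subunit of the SUMO-activating enzyme, had the largest fold of these, with 50.1 reads per library in *rlp44-3*, against 3.59 in Col-0 (log2 fold change 3.49, counting interval 2.58 to 4.49). It passed the filter through *rlp44-3* alone, which fixed its direction. Its near-identical copy AT5G50680 was empty in the table, so this value is uncertain. AT4G38775 and the RNA gene AT2G08665 also belonged to the 12 largest, with log2 fold changes of 1.86 and 2.02, and both overlap genes on the other strand. Of the trehalose phosphate synthase-like class, 7 genes were kept with a median of −0.03, and *TPS11* and *TPS8*, both known to respond to sugar status, were past 1.5-fold higher with log2 fold changes of 0.87 and 0.83.

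**Figure D4:**
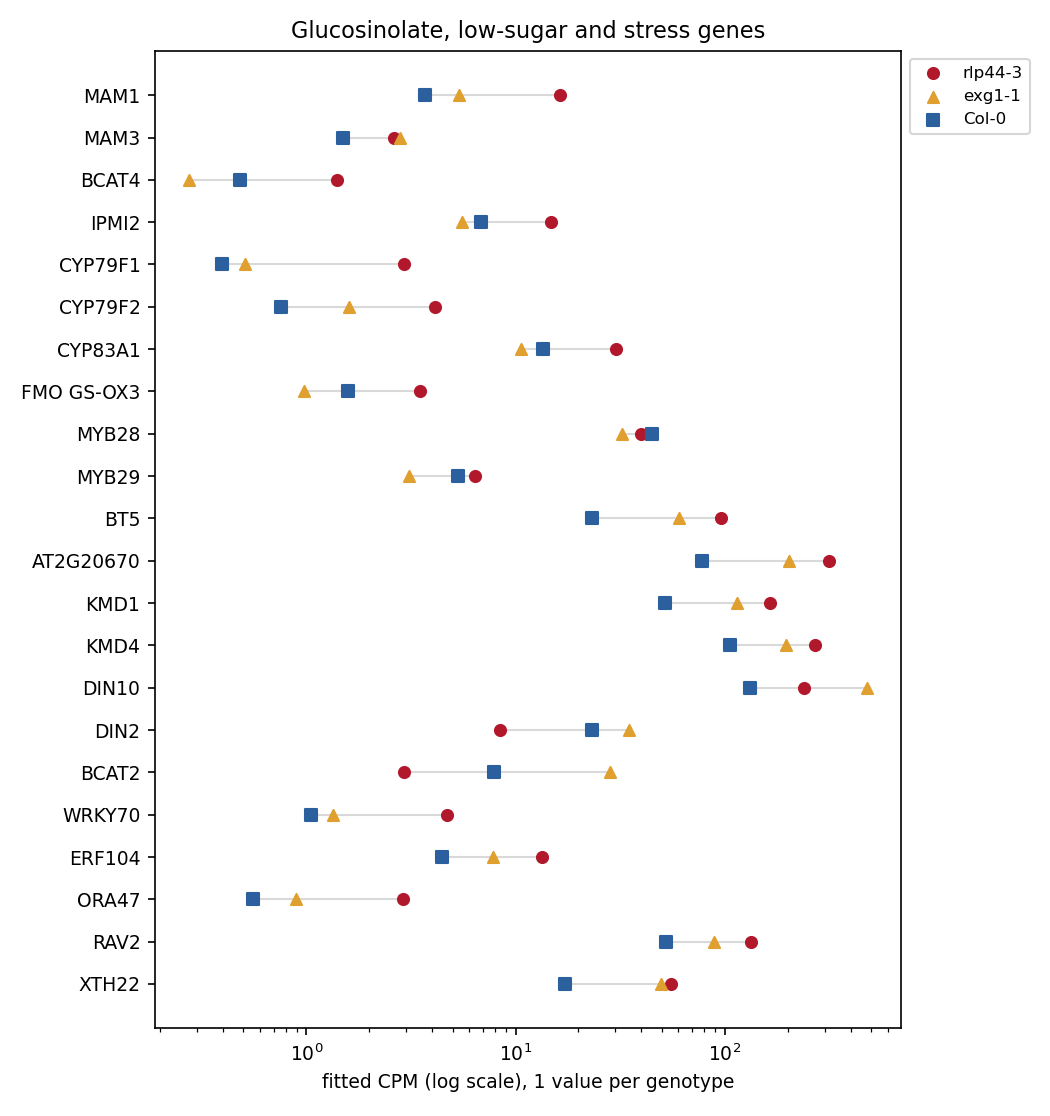
Fitted CPM (horizontal log axis) of glucosinolate, low-sugar and stress genes in *rlp44-3* (circles), *exg1-1* (triangles) and Col-0 (squares), 1 value per genotype without error. *MAM1* stands at 16.3 CPM in *rlp44-3*, 5.37 in *exg1-1* and 3.69 in Col-0, while *DIN2* is lowest in *rlp44-3* and the regulator *MYB28* has its points close together.

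Transcription factors of rapid stress responses were higher for some members and lower for others. These genes are switched on within minutes of wounding, touch or elicitors and encode short-lived activators and repressors. Of 48 kept WRKY genes, 34 were higher and 14 lower (median 0.14), 6 were past 1.5-fold higher, and none was past 1.5-fold lower. Of the 44 with 10 or more reads in both genotypes, 2 were past 1.5-fold higher. *WRKY70*, which acts in salicylic acid signalling, had 53.5 reads per library in *rlp44-3*, against 9.61 in Col-0 (log2 fold change 2.16, counting interval 1.57 to 2.78). *WRKY22*, a factor of the immune MAP kinase cascade, had 62.7 reads per library in *rlp44-3*, against 23.2 in Col-0 (log2 fold change 1.12, counting interval 0.71 to 1.53). In *exg1-1* the log2 fold changes over Col-0 were 0.35 for *WRKY70* and 1.65 for *WRKY22*. Among 12 kept stress ERF and DREB genes, 7 were higher and 5 lower. Past 1.5-fold were 3 higher, all of them past 2-fold, and 4 lower, 1 of them past 2-fold. Of the 10 with 10 or more reads in both genotypes, 1 was past 1.5-fold higher and 4 were past 1.5-fold lower. *ERF104*, a substrate of the kinase MPK6 in ethylene signalling, had 151, 149 and 156 reads in the fitted *rlp44-3* columns, against 41.9, 37.2 and 42.7 in the fitted Col-0 columns (log2 fold change 1.59). *ERF105*, a cold and stress factor, and *ORA47*, an activator of jasmonate synthesis, had 40.1 and 32.8 in *rlp44-3*, against 6.99 and 5.06 in Col-0, and both overlap genes on the other strand. Both passed the filter through *rlp44-3* alone, which fixed their direction. The drought factor *DREB2A* was lower instead, with 106 reads per library in *rlp44-3*, against 131 in Col-0 (log2 fold change −0.62, counting interval −0.84 to −0.40), and *CBF2* and *CBF3*, factors of cold acclimation, had log2 fold changes of −0.94 and −1.04 with fewer than 30 reads each.

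Of 9 kept zinc finger and MYB factors that stress induces, 7 were higher and 2 lower (median 0.20), with 3 past 1.5-fold, all higher. *ZAT10*, a zinc finger repressor, had 60.0 reads per library in *rlp44-3*, against 22.7 in Col-0 (log2 fold change 1.09, counting interval 0.68 to 1.52). *MYB73*, a MYB repressor, had 959.7 reads per library in *rlp44-3*, against 395 in Col-0 (log2 fold change 0.97, counting interval 0.87 to 1.07), and overlaps a gene on the other strand. Its relative *MYB77*, an auxin response partner in lateral roots, had a log2 fold change of 0.72 (counting interval 0.48 to 0.96). The others lay between −0.12 for *MYB51* and 0.52 for *MYB70* on the log2 scale. Of the 4 RAV genes, B3 and AP2 repressors of flowering and growth, 3 were past 1.5-fold higher. *RAV2* had 1507 reads per library in *rlp44-3*, against 480.4 in Col-0 (log2 fold change 1.34, counting interval 1.25 to 1.42), *RAV1* had 993 reads per library in *rlp44-3*, against 405 in Col-0 (log2 fold change 0.98) and *TEM1* had 623 reads per library in *rlp44-3*, against 287 in Col-0 (log2 fold change 0.81). The fourth, *EDF3*, had a log2 fold change of −0.03. *ACS6*, an enzyme of ethylene synthesis stabilised by the stress MAP kinases, had 185 reads per library in *rlp44-3*, against 64.0 in Col-0 (log2 fold change 1.22, counting interval 0.98 to 1.47), the 1 member of 15 kept ethylene genes past 1.5-fold. The 13 jasmonate synthesis and response genes had a median of 0.00 with none past 1.5-fold, of 9 JAZ repressors only *JAZ9* was (log2 fold change 0.59, under 1.5-fold with upper quartile scaling), and of 12 salicylic acid genes 2 were, *WRKY70* and the receptor *NPR3* (log2 fold change 0.60). *WRKY70* passed the filter through *rlp44-3* alone, which fixed its direction.

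Cell wall genes were examined because RLP44 reads the state of the wall. XTH enzymes cut and rejoin xyloglucan chains. Of 26 kept XTH genes, 11 were higher and 15 lower (median −0.14), 1 was past 1.5-fold higher and 8 were past 1.5-fold lower. Of the 23 with 10 or more reads in both genotypes, 1 was past 1.5-fold higher and 6 were past 1.5-fold lower. The median was nearer to 0 with fewer low genes, at −0.02 where both genotypes had to reach 10 reads and 0.00 where one had to reach 50. *XTH22*, the touch-inducible gene also known as *TCH4*, had 622, 614 and 643 reads in the fitted *rlp44-3* columns, against 163, 144 and 166 in the fitted Col-0 columns (log2 fold change 1.68, counting interval 1.53 to 1.83). Its log2 fold change in *exg1-1* over Col-0 was 1.52. *XTH5* had 71.7 reads per library in *rlp44-3*, against 114 in Col-0 (log2 fold change −0.98, counting interval −1.23 to −0.73), and the root gene *XTH19* had 87.5 reads per library in *rlp44-3*, against 138 in Col-0 (log2 fold change −0.97, counting interval −1.20 to −0.75). *XTH14*, also of roots, and *XTH23* had log2 fold changes of −0.62 and −0.60. *XTH20*, a close relative of *XTH19*, was near Col-0, with 138 reads per library in *rlp44-3*, against 105 in Col-0 (log2 fold change 0.08, counting interval −0.13 to 0.30). In CPM this was 12.2 in *rlp44-3*, 5.45 in *exg1-1* and 11.5 in Col-0. *XTH24* had a log2 fold change of −0.17, and those of *XTH4*, *XTH6*, *XTH16*, *XTH27* and *XTH31* lay between −0.16 and 0.29.

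Expansins loosen the wall without cutting it. Of 22 kept expansins, 3 were higher and 19 lower, with a median log2 fold change of −0.18. Only *EXLB1* was past 1.5-fold, at 9.05 reads in *rlp44-3* against 15.6 in Col-0. It passed the filter through Col-0 alone, which fixed its direction. The summed level of the 22 expansins was 828 CPM in *rlp44-3*, 708 in *exg1-1* and 941 in Col-0. *EXPA15* had 226 reads per library in *rlp44-3*, against 247 in Col-0 (log2 fold change −0.44, counting interval −0.59 to −0.29), and *EXPA18*, a root hair expansin, had 26.3 reads per library in *rlp44-3*, against 31.5 in Col-0 (log2 fold change −0.57, counting interval −1.01 to −0.12). *EXPB3*, *EXPA3*, *EXPA4*, *EXPA5* and *EXPA8* had log2 fold changes that lay between −0.20 and −0.08. The EXORDIUM family, whose founding member mediates growth promoted by brassinosteroid and whose *EXL1* acts in low carbon, was higher in all 6 kept members (median 0.35). *EXO* had 464 reads per library in *rlp44-3*, against 218 in Col-0 (log2 fold change 0.78, counting interval 0.64 to 0.91), *EXL1* had 141 reads per library in *rlp44-3*, against 67.8 in Col-0 (log2 fold change 0.75, counting interval 0.50 to 1.00), and *EXL3* had 1026 reads per library in *rlp44-3*, against 634 in Col-0 (log2 fold change 0.38, counting interval 0.30 to 0.47). The log2 fold changes of the other 3 lay between 0.14 and 0.31. Fasciclin-like arabinogalactan proteins had no member past 1.5-fold among 14, and cellulose synthases, arabinogalactan proteins and pectin methylesterases had 1 each among 9, 26 and 11. The pectin methylesterase was lower. The cellulose synthase and the arabinogalactan protein were higher, and both passed the filter through *rlp44-3* alone, which fixed their direction.

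Genes of wall sensing, among them known partners of RLP44, were mostly within 1.5-fold of Col-0. Of 22 kept receptors and wall proteins that sense the wall, 9 were higher and 13 lower (median −0.06), and apart from *RLP44* only *LRX2*, a leucine-rich extensin of root hairs, was past 1.5-fold, with 36.7 reads per library in *rlp44-3*, against 51.7 in Col-0 (log2 fold change −0.80, counting interval −1.17 to −0.44). *PSKR1*, the phytosulfokine receptor, had a log2 fold change of 0.05 and *FER*, the FERONIA kinase, one of 0.00. Of 28 kept receptor-like protein genes, *RLP44* among them, 2 were past 1.5-fold higher and 3 past 1.5-fold lower. *RLP19* had 109.9 reads per library in *rlp44-3*, against 41.3 in Col-0 (counting interval of the log2 fold change 0.80 to 1.41), and *RLP27* had 88.0 reads per library in *rlp44-3*, against 39.7 in Col-0 (log2 fold change 0.84, counting interval 0.52 to 1.16). Past 1.5-fold lower were *RLP44* itself and, chosen after their values were seen, *RLP22* and *RLP29*, with 14.9 and 14.0 reads in *rlp44-3*, against 19.3 and 17.7 in Col-0.

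None of 19 kept brassinosteroid signalling genes was past 1.5-fold, with log2 fold changes from −0.25 to 0.26 (median −0.01). The highest was that of *BKI1*, an inhibitor of the receptor BRI1, 0.26 (counting interval −0.01 to 0.53). None of 12 synthesis genes was past 1.5-fold either. Among these the largest difference was in *BR6OX2*, which makes the last steps to brassinolide and is repressed when signalling is active, with 133 reads per library in *rlp44-3*, against 154 in Col-0 (log2 fold change −0.52, counting interval −0.72 to −0.33). Of a list of 9 genes taken as downstream of brassinosteroid, *XTH22* was past 1.5-fold higher and *VND6* past 1.5-fold lower, with a list median of 0.03.

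Vascular genes showed small differences. Of 19 kept cambium genes none was past 1.5-fold (median −0.03). *WOX4*, which promotes division of cambium cells, had 2.74 CPM in *rlp44-3*, against 2.74 in Col-0 (log2 fold change −0.00, counting interval −0.46 to 0.46), and *HB-8* (ATHB8), an early marker of procambium, had 340.4 reads per library in *rlp44-3*, against 269.7 in Col-0 (log2 fold change 0.02, counting interval −0.11 to 0.16). Of 15 kept xylem genes, 3 were higher and 12 lower, with a median of −0.25. Past 1.5-fold lower were *VND6*, a master switch of vessel cells, with 11.3 reads per library in *rlp44-3*, against 17.2 in Col-0 (log2 fold change −0.91, counting interval −1.59 to −0.27), and *RNS3*, a ribonuclease of the xylem (log2 fold change −0.62, counting interval −0.93 to −0.31). *VND2*, another NAC factor, was past 1.5-fold higher at 21.3 reads, against 11.4 in Col-0. The enzymes of the secondary wall did not reach 1.5-fold: the laccases *LAC4* and *LAC17*, which polymerise lignin, had log2 fold changes of −0.53 and −0.48, the cellulose synthases *CESA4*, *CESA7* and *CESA8* at −0.19, −0.33 and −0.11, and the proteases *XCP1* and *XCP2* at −0.29 and −0.28. The 11 phloem genes had a median of −0.08, and of 8 kept wound and regeneration factors 7 were lower, 2 of them past 1.5-fold (median −0.26). Of these 2, *WOX5* passed the filter through Col-0 alone, which fixed its direction.

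**Figure D5:**
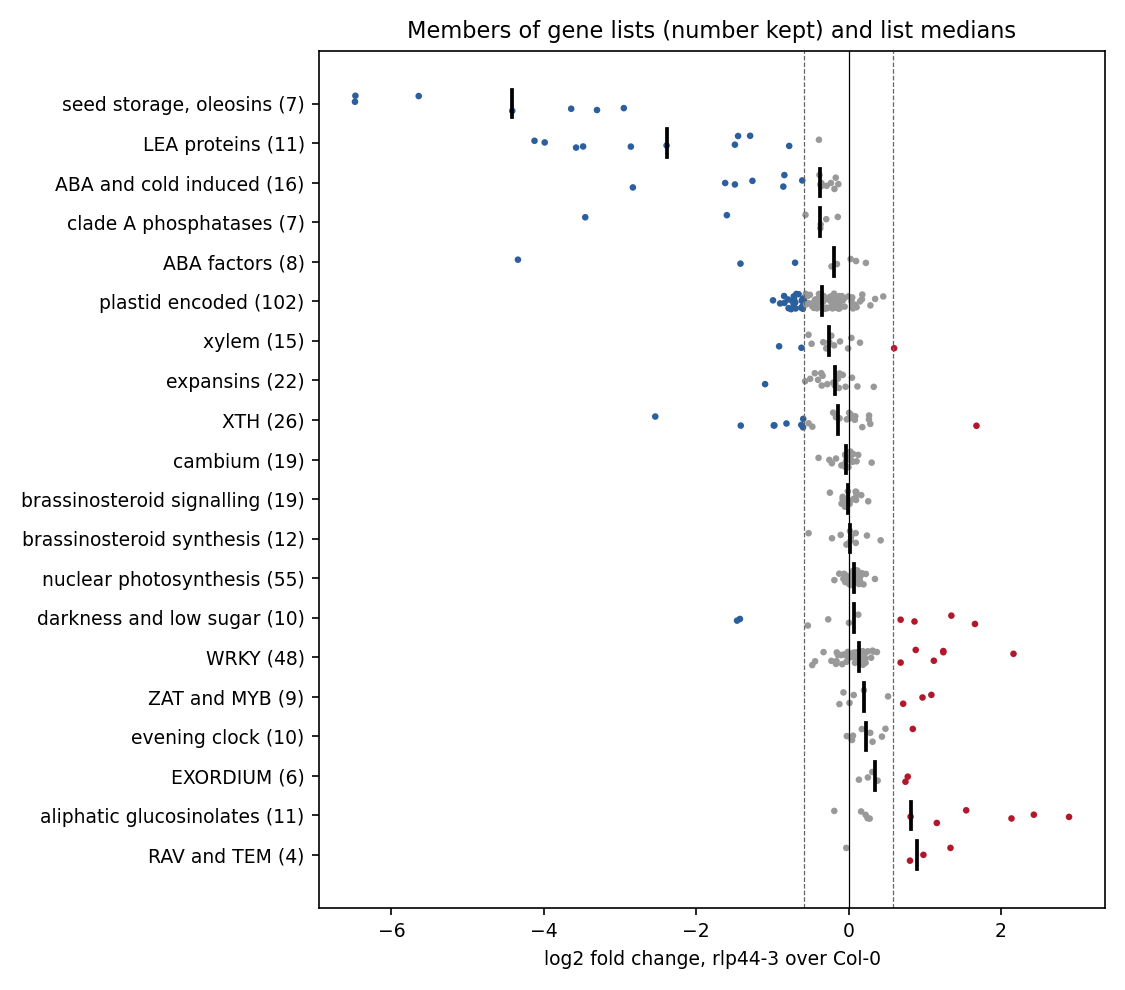
Log2 fold change of *rlp44-3* over Col-0 (horizontal axis) for the kept members of 20 gene lists, 1 point per gene, with the list median as a bar and dashed lines at 1.5-fold, members past it in blue (lower) and red (higher). Seed, LEA and abscisic acid lists have their medians left of 0, aliphatic glucosinolate and RAV lists right of it, and brassinosteroid and cambium lists near it.

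Across all 51 lists, 12 with 189 kept members had none past 1.5-fold, and their medians ranged from −0.11 to 0.09. Among these were 55 nuclear photosynthesis genes, of which 48 were higher by small amounts (median 0.07), and the 11 morning clock genes (median −0.11). Of 10 evening clock genes 9 were higher (median 0.23), and *PRR5*, a repressor of the morning genes, had a log2 fold change of 0.44 (counting interval 0.31 to 0.57). Of 32 cell cycle genes 20 were higher (median 0.11), with 1 past 1.5-fold, the mitotic cyclin *CYCB1;3* (log2 fold change 0.64). The 46 kept SAUR genes, auxin-induced and linked to growth, had a median of −0.15, with 2 past 1.5-fold higher and 7 lower, *SAUR16*, *SAUR57*, *SAUR20* and *SAUR21* among them at −0.73, −0.66, −0.60 and −0.59 on the log2 scale. *SAUR21* was under 1.5-fold when scaled by column totals. Of the 41 SAUR genes with 10 or more reads in both genotypes, none was past 1.5-fold higher and 6 were past 1.5-fold lower. The 21 auxin repressors of the AUX/IAA family had a median of −0.01.

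Transcripts of plastid genes took a smaller share of the *rlp44-3* libraries. The 102 kept plastid genes summed to 17923 CPM in *rlp44-3*, 26940.1 in *exg1-1* and 23248 in Col-0, and 90 of them were lower, 26 past 1.5-fold (median −0.34). The 31 kept mitochondrial genes had a median of −0.12, with 12 higher and 19 lower, and summed to 3890.0 CPM in *rlp44-3*, 3913 in *exg1-1* and 5064 in Col-0. ATMG00020 and ATMG01390 carried most of that sum, with 3544 CPM in *rlp44-3*, 3537 in *exg1-1* and 4704 in Col-0, and the other 29 genes summed to 346 CPM in *rlp44-3*, 376 in *exg1-1* and 360.5 in Col-0. Such RNAs mostly lack the poly(A) tail by which the mRNA was selected, and a nuclear locus of 18S ribosomal RNA, AT2G01010, chosen after its value was seen, was at 13.6 CPM in *rlp44-3*, 78.2 in *exg1-1* and 36.6 in Col-0. What these shares contribute to the organelle differences was not tested. With organelle genes left out of the scaling and of the counts, 502 nuclear genes were at least 1.5-fold lower, against 530 with them.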

How the data were processed

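mRNA was measured in whole seedlings, 3 libraries each of *rlp44-3*, *exg1-1* and Col-0. Per the study's methods and the submitters' processing notes, the authors selected poly(A) RNA, trimmed reads with fastp, mapped them with HISAT2 to TAIR10, counted them with HTSeq and tested them with DESeq2. The sources used here give no tool versions. The deposited table, called raw counts, has 33341 rows (7624 of them empty). The values the authors deposited there are of another unit than counts: fitted reads that are not whole, with the columns of a genotype proportional to one another. Columns were matched to a genotype by name, and 3 columns of another genotype were not used. Count tests, the replicate block and tests on replicates that the design had foreseen could not be run.

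The 3 columns of a genotype were summed, scaled by TMM (30% of ratios and 5% of levels trimmed at each end, log2 scale 0.31 for *rlp44-3* against Col-0) and kept at a mean of at least 10 reads per library in 1 or both genotypes. Intervals are exact (Clopper-Pearson, 95%) on rounded sums. Sums under 1 read were taken as no reads, and a fold against them is a bound at a floor of 3 reads over the 3 libraries. At a mean of 10 reads, counting error is large. Names and promoters came from RefSeq TAIR10.1 (25487 of 25717 genes found). The 51 gene lists, 6 marker lists and the comparison itself were chosen with earlier results of these data known.

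Genes named were *RLP44*, the 12 largest differences in each direction among nuclear genes with 50 or more reads in the higher genotype, up to 4 members per list and direction past 1.5-fold with 30 or more reads (else the member of largest difference), and the genes the study names. Any other gene named was picked with its value in view, as a member of a list or family. Alternatives were other scalings, other filters, an offset of 10 reads, organelle genes left out, and each column left out in turn. The scaling and interval steps were tested on simulated data. Python 3.11.15, numpy 2.4.6, pandas 2.3.3, scipy 1.17.1 and matplotlib 3.10.9 were used.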

Additional observations from a re-analysis of the deposited data

How the results depend on the processing

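The filter on low reads moved the counts of genes most. At least 2-fold higher and lower in *rlp44-3* were 113 and 175 genes, and these became 1035 and 1611 without a filter, 58 and 74 with 10 or more reads in both genotypes, 53 and 47 with 50 or more reads in at least 1, and 51 and 85 with 10 reads added before the ratio. At least 1.5-fold higher and lower were 397 and 530, which became 2273 and 2381 without a filter, 163 and 157 with 50 or more reads in at least 1 genotype, and 183 and 246 with 10 reads added, and the higher count became 244 with 10 or more reads in both. Other scalings gave 113 to 116, 174 to 175, 393 to 412 and 511 to 530. Leaving out each column in turn, which can change only the filter here, gave 113 to 114, 170 to 179, 395 to 402 and 519 to 542, and −6.88 for *RLP44*. With 10 reads added, the log2 fold change of *RLP44* was −2.10. Of 1804 values of 132 named genes, 1776 stayed within their counting interval, and no named gene past 1.5-fold changed sign. The 1804 values include the runs with a column left out, which could change a ratio only through the scaling. Agreement in those runs was therefore largely fixed in advance. Of 93 named genes past 1.5-fold, 14 were under it with 10 reads added: *ABI3*, ATMG00640, *CYCB1;3*, *DREB2A*, *EM6*, *JAZ9*, *NPR3*, *RNS3*, *SAUR20*, *SAUR21*, *SAUR57*, *VND6*, *XTH14* and *XTH23*. Of 780 list medians, with the same runs among them, 748 moved by less than 0.1. No paired analysis was possible because the columns of a genotype hold one fitted value and no replicate spread. Depth limits genes near 10 reads per library, where a 2-fold difference can lie within counting error, and the variation between plants is not measured in these values.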

Other observations

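Iron genes were examined beside the groups above. *IRT1*, the root iron transporter, had 19.0 reads per library in *rlp44-3* and none in Col-0, at least 15.3-fold higher when Col-0 is set at 3 reads in all. It was at 1.68 CPM in *rlp44-3* and 0.16 in *exg1-1*. *NAS2*, a nicotianamine synthase of iron transport, had 22.1 reads in *rlp44-3*, against 8.16 in Col-0, while *NAS3* had a log2 fold change of 0.40 (95% counting interval 0.06 to 0.75). *IRT1* and *NAS2* passed the filter through *rlp44-3* alone, which fixed their direction. Over 15 kept iron genes, 12 were higher and 3 lower, with a median of 0.11. Of the 12 with 10 or more reads in both genotypes, none was past 1.5-fold. In the opposite direction, *scpl44*, a serine carboxypeptidase-like gene, had no reads in *rlp44-3* and 18.1 per library in Col-0, at least 22.4-fold lower. It passed the filter through Col-0 alone, which fixed its direction. All of these but *NAS3* were picked with their values in view.

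Genes of other stresses did not share a direction. Of 10 kept hypoxia genes, 3 were higher and 7 lower. *ADH1*, the alcohol dehydrogenase of fermentation, had 25.6 reads in *rlp44-3*, against 46.6 in Col-0 (log2 fold change −1.18, counting interval −1.59 to −0.76), and *LBD41*, a low-oxygen marker, had 72.0 in *rlp44-3*, against 30.8 in Col-0 (0.91, interval 0.56 to 1.29). Of 30 heat genes, 15 were higher and 15 lower, and *HSFA6A*, a heat shock factor also induced by abscisic acid, had 13.7 reads in *rlp44-3*, against 38.0 in Col-0. *SAG29*, a sugar transporter of senescence that abscisic acid induces, had 16.0 in *rlp44-3*, against 35.4 in Col-0. The shade repressor *PAR1* had 112 in *rlp44-3*, against 49.1 in Col-0 (log2 fold change 0.88, counting interval 0.60 to 1.17), and the touch gene *TCH3*, a calmodulin-like protein, had 211 in *rlp44-3*, against 109 in Col-0 (0.64, interval 0.45 to 0.84).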
